A study of Mus musculus with 16 samples.

Results

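The basement membrane genes examined here are Col4a1, Col4a2, Lama1, Lama5, Lamb1, Lamc1, Nid1, Nid2, Sparc and Hspg2. These 10 of the 24452 genes in the table were found by matching Ensembl gene IDs to mouse symbols, and all 10 passed the filter for low values. They were picked with their values in all 8 columns already known, so their own levels and differences are descriptions without a test. RNA was sequenced from 2 lines of mouse embryonic stem cells, a line labelled Suz12-KO with genotype Suz12-/- and a line labelled E14-WT with wild-type genotype (WT below). The Suz12 protein belongs to the Polycomb repressive complex that places methyl marks on histone H3 at genes kept silent. Each line was sampled at 0 h, in serum medium with LIF on gelatin, and after 24, 48 and 72 h in equivalent medium without LIF and with 1 µM all-trans retinoic acid, which drives these cells out of pluripotency. By the labels there are 16 samples, 2 for each line and time, but the table has a single column for each of these 8 groups, so no spread between cultures could be computed. How Suz12 was mutated, and in which parent cells, is not stated in the labels, and loss of Suz12 cannot be told apart from other differences between the lines. Suz12 RNA itself stood at 2.59, 3.09, 2.38 and 1.35 RPKM in Suz12-KO cells at 0, 24, 48 and 72 h, against 2.94, 2.58, 1.26 and 0.995 RPKM in WT cells.

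A basement membrane is the thin sheet of matrix on which epithelia rest, and in the early mouse embryo endoderm cells are among its main producers. Laminins, which are trimers of an alpha, a beta and a gamma chain, polymerise on the cell surface, and collagen IV forms a covalently linked network beside them. Nidogens and the heparan sulfate proteoglycan perlecan (Hspg2) tie the networks together, and Sparc is a collagen-binding matrix protein that is abundant in parietal endoderm. Retinoic acid is a classical inducer of several of these genes in embryonal carcinoma and embryonic stem cells.

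Col4a1 and Col4a2 lie head to head. In GENCODE M21 (GRCm38) Col4a1 (ENSMUSG00000031502) runs on the minus strand of chromosome 8 from 11198423 to 11312826, and Col4a2 (ENSMUSG00000031503) on the plus strand from 11312805 to 11449287, so that their starts overlap by 22 bases. Promoter windows of 300 bases, 250 before to 50 after the start, were found in RefSeq (GRCm38.p6) for 7 of the 10 genes. The Col4a1 and Col4a2 windows share 78 bases and are shown because these genes had nearly the same profile over the 8 columns. Lamb1, a laminin beta chain gene that rose in both lines by the authors' deposited table, and Lama5, a laminin alpha chain gene with small differences between the lines, are set beside them. Sequences run 5′ to 3′ on the strand of the gene, from chr8:11312777-11313076 (minus), chr8:11312555-11312854 (plus), chr12:31265043-31265342 (plus) and chr2:180225810-180226109 (minus). Capitals mark GGGCGG or CCAAT on either strand.
Col4a1: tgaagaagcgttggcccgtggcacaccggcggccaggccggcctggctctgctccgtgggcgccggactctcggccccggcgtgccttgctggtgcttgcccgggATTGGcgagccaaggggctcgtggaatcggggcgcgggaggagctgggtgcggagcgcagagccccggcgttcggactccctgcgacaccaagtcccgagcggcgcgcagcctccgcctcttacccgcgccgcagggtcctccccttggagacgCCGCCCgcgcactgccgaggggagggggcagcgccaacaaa
Col4a2: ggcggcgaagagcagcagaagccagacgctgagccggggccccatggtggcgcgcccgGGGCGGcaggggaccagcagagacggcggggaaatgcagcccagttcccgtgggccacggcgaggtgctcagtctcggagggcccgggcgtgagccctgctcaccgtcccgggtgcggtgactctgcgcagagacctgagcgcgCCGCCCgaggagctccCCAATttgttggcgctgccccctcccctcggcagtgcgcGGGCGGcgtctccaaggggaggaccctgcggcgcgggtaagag
Lamb1: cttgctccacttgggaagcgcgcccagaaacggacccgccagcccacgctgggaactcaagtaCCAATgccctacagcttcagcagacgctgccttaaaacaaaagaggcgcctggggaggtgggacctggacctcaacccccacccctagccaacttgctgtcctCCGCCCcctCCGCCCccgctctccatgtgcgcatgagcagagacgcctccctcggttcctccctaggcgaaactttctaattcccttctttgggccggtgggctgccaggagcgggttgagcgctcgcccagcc
Lama5: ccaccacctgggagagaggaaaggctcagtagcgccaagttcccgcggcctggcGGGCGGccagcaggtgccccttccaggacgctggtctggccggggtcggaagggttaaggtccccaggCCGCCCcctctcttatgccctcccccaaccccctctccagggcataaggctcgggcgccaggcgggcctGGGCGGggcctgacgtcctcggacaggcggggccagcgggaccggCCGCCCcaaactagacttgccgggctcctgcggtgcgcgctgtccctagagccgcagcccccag

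GGGCGG, the core of the GC box, was found on either strand in 6 of the 7 windows (Col4a1, Col4a2, Lama5, Lamb1, Nid1 and Hspg2) and in 35.7% of all 32851 windows. The 1 match in the Col4a1 window lies in the bases shared with the Col4a2 window and is also 1 of the 3 matches there. In the 250 bases before the start 5 of 7 windows held it, Col4a1 not among them, beside 32.7% of all windows. CCAAT was found in 4 of 7 (Col4a1, Col4a2, Lamb1 and Nid1) and in 37.4% of all windows. None of the 7 windows held AGATAA, a motif read by GATA factors that is present in 11.2% of all windows. Likewise none of them held ATTGTT, a motif read by Sox factors and found in 10.7% of all windows. The nuclear receptor motif AGGTCA was also missing from these windows, where 16.3% of all windows have it. The last motif searched, the TATA box in the form TATAAA, occurs in 13.6% of all windows and in none of the 7. No motif contains another on either strand. The GC content was 74.0% in the Col4a1 window, 73.7% in the Col4a2 window, 72.7% in the Lama5 window and 70.3% in the Hspg2 window, against a median of 52.7% over all windows. Sparc stood apart from the other 6 windows with 4 CpG dinucleotides at a GC content of 55.3%, where the others held 18 to 37 CpG and the median window 7. The Sparc window was placed at a start of 55420080 on chromosome 11. In GENCODE M21 this minus-strand gene begins further upstream, at 55423183, and the bases there were not searched.

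Levels are RPKM as the authors deposited them, that is reads scaled to gene length and to the total of the column, so they can be compared between genes. Intervals are exact 95% Poisson intervals of the whole reads recovered from the RPKM values and cover counting error only. The columns rest on 24731176 to 32153765 reads, of which protein-coding genes took 21.04% to 30.7%. Because this share differed, differences between columns were computed after dividing RPKM by a median-of-ratios factor (-0.53 to 0.26 on the log2 scale), as log2(scaled RPKM + 0.5). Without this scaling the median of the 10860 genes kept would be higher in Suz12-KO than in WT cells by 0.17, 0.25, 0.15 and 0.04 at 0, 24, 48 and 72 h, and higher at 72 h than at 0 h by 0.32 in Suz12-KO and 0.50 in WT cells. Folds are ratios of scaled RPKM with nothing added, and the interval beside a fold covers counting error only. "Rose" and "fell" are kept for genes that the authors' deposited table marks as different between 72 and 0 h. In bulk RNA, fewer cells of a type and less RNA per cell cannot be told apart.

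Collagen IV RNA was higher in Suz12-KO cells at every time, before retinoic acid included, and it rose in both lines. Col4a1, the more abundant chain gene, stood at 2.79 (interval 2.55 to 3.04), 6.02, 34.1 and 71.7 RPKM (70.5 to 73.0) in Suz12-KO cells at 0, 24, 48 and 72 h, against 0.199 (0.138 to 0.276), 0.785, 5.37 and 8.78 RPKM (8.35 to 9.22) in WT cells. The levels climbed at each step in both lines, and the Suz12-KO level at 48 h was already above the WT level at 72 h. The Suz12-KO to WT ratio of Col4a1 was 11.7-fold (8.27 to 16.9) at 0 h, 6.23-fold at 24 h, 5.58-fold at 48 h and 7.81-fold (7.41 to 8.24) at 72 h. The WT level at 0 h rests on 35 reads.

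**Figure D1:**
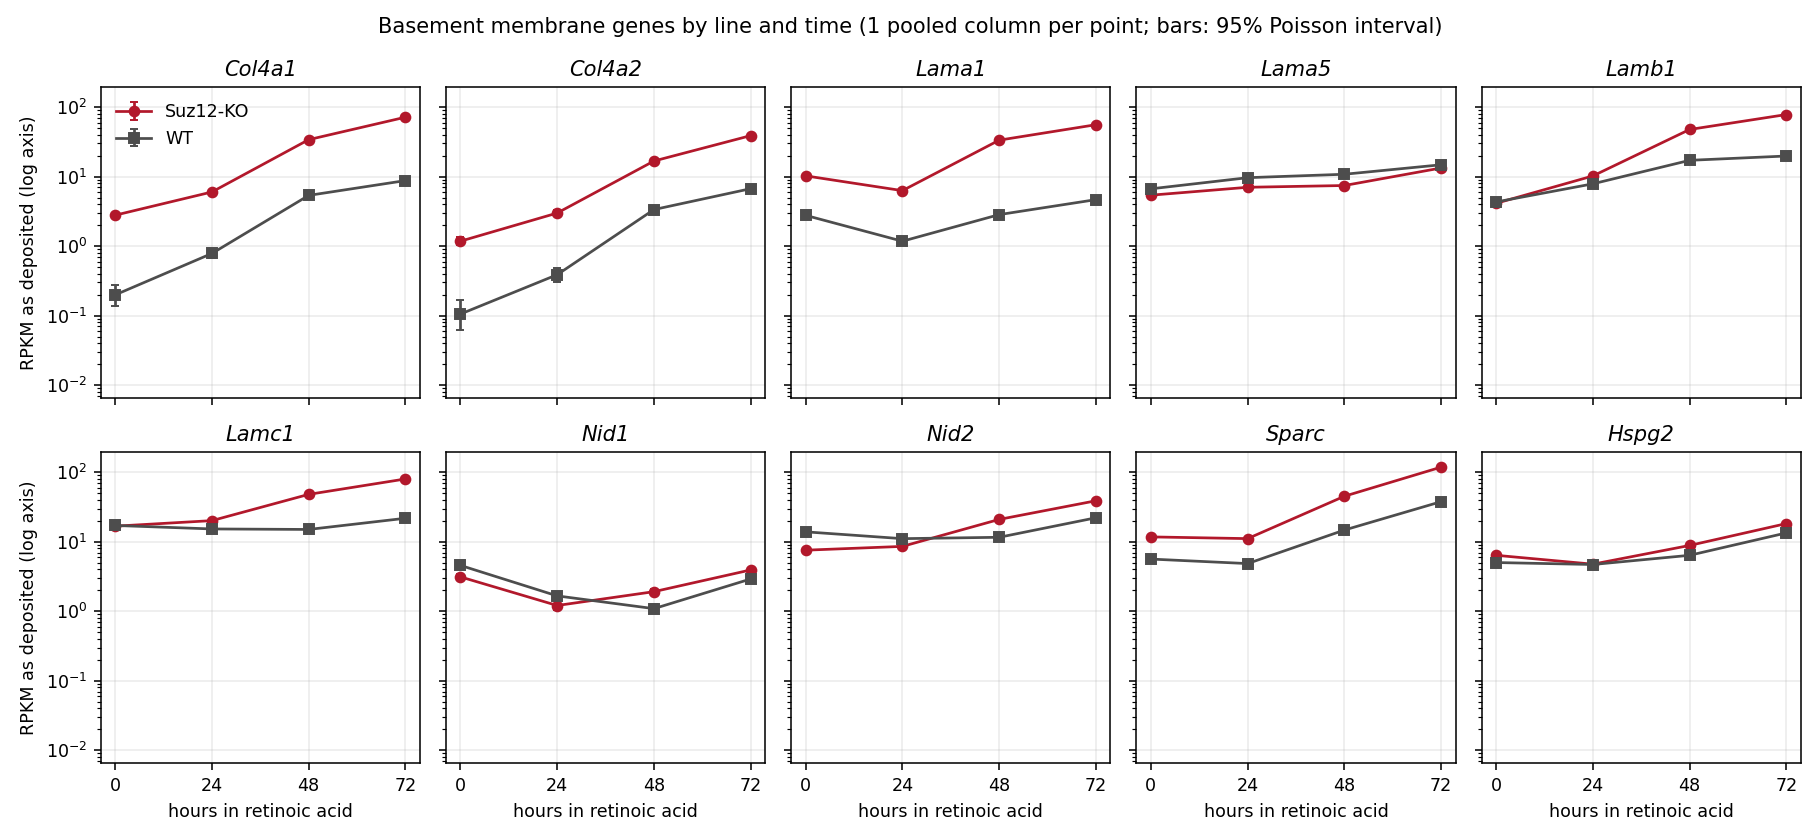
RPKM as deposited (log axis) against hours in retinoic acid for the 10 genes, with Suz12-KO in red and WT in grey and bars for the 95% Poisson interval of 1 pooled column each. Collagen IV and Lama1 are apart at all times, and Nid2 crosses between 24 and 48 h. Lamb1 and Lamc1 are close at 0 h, somewhat higher in Suz12-KO at 24 h and further apart after that.

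Col4a2, whose protein joins that of Col4a1 in the most widespread collagen IV trimer, stood at 1.18, 2.99, 16.8 and 39.0 RPKM in Suz12-KO cells at 0, 24, 48 and 72 h, against 0.105, 0.388, 3.36 and 6.72 RPKM in WT cells. Its level climbed at each step in both lines. At 0 h the ratio between the lines was 9.29-fold (5.74 to 16.0, on 212 and 18 reads), and at 72 h it was 5.55-fold (5.21 to 5.91). Both genes rose in both lines by the marks of the authors' deposited table. The 72 h to 0 h ratio of Col4a1 was 19.2-fold in Suz12-KO cells, against 28.6-fold (20.5 to 41.3) in WT cells. That of Col4a2 was 24.7-fold (21.5 to 28.4) in Suz12-KO cells, against 41.4-fold (26.0 to 70.02) in WT cells. The gap between the lines was thus in place at 0 h. On the log2 scale the 72 h change was larger in Suz12-KO cells by 0.60 for Col4a1 and 0.83 for Col4a2 with 0.5 added, and the same difference was -0.20 and -0.13 with 0.1 added, so its direction depends on the added constant.

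Laminin alpha chain RNA differed between the lines in kind at all 4 times. Its summed amount differed least at 24 h, with 13.5 RPKM in Suz12-KO and 11.0 RPKM in WT cells as deposited, and nearly equal levels on scaled RPKM. Lama1 (ENSMUSG00000032796, chromosome 17, 67697259 to 67822647), the alpha chain gene of the main laminin of the early embryo, stood at 10.3, 6.29, 33.5 and 55.9 RPKM in Suz12-KO cells at 0, 24, 48 and 72 h, against 2.77, 1.18, 2.84 and 4.67 RPKM in WT cells. The lines did not overlap at any pair of times, since the lowest Suz12-KO level lay above the highest WT level. In both lines Lama1 was lower at 24 h than at 0 h, with differences of -1.15 on the log2 scale in Suz12-KO cells, against -1.39 in WT cells (-0.67 and -0.97 on RPKM as deposited). From there both lines climbed, with 72 h to 0 h ratios of 4.06-fold (3.90 to 4.24) in Suz12-KO and 1.09-fold (0.992 to 1.20) in WT cells. The authors' deposited table marks the rise in Suz12-KO cells and not the WT difference. The ratio between the lines was 3.08-fold at 0 h, 4.34-fold at 24 h, 10.4-fold at 48 h and 11.4-fold (10.8 to 12.2) at 72 h.

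Lama5, which encodes the alpha chain found in most epithelial basement membranes, stood at 5.41, 7.03, 7.46 and 13.3 RPKM in Suz12-KO cells at 0, 24, 48 and 72 h, against 6.68, 9.66, 10.8 and 14.8 RPKM in WT cells. It was lower in Suz12-KO cells at all 4 times, with differences of -0.54, -0.71, -0.68 and -0.21 on the log2 scale, and the ranges of the lines overlapped. Neither line carries the authors' mark for Lama5. The genes Lama2, Lama3 and Lama4 gave the rest of the alpha chain RNA and did not reach 1 RPKM in any column. Lama1 made up 65.2%, 46.6%, 81.1% and 80.5% of the summed alpha chain RPKM in Suz12-KO cells at 0, 24, 48 and 72 h, against 29.1%, 10.7%, 20.3% and 23.6% in WT cells. Lama1 was the leading alpha chain gene in Suz12-KO cells at 3 of 4 times, and Lama5 led in WT cells at all 4.

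**Figure D2:**
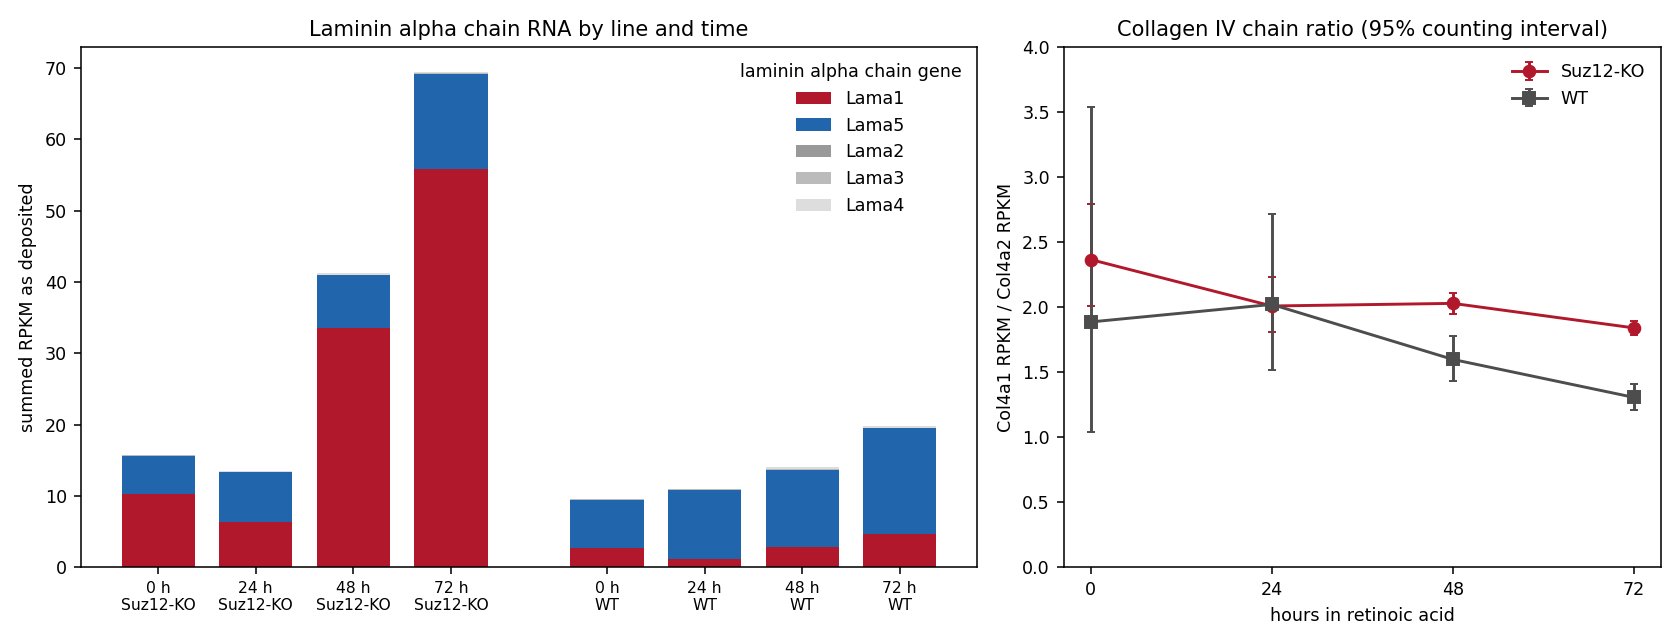
Left, RPKM as deposited of the 5 laminin alpha chain genes stacked for each line and time. Right, the ratio of Col4a1 to Col4a2 RPKM against hours in retinoic acid with 95% counting intervals, which at 72 h is 1.84 in Suz12-KO and 1.31 in WT cells.

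On scaled RPKM the beta and gamma chain genes were close between the lines at 0 and 24 h and parted after that. On RPKM as deposited the 24 h differences were 0.36 for Lamb1 and 0.39 for Lamc1 on the log2 scale. Lamb1 (ENSMUSG00000002900, chromosome 12), the beta chain gene of the same laminin, stood at 4.13, 10.2, 47.7 and 78.3 RPKM in Suz12-KO cells at 0, 24, 48 and 72 h, against 4.32, 7.88, 17.2 and 19.8 RPKM in WT cells. It rose in both lines by the authors' deposited table. The ratio between the lines was 0.795-fold at 0 h, 1.06-fold (0.997 to 1.12) at 24 h, 2.45-fold at 48 h and 3.78-fold (3.66 to 3.90) at 72 h.

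Lamc1 (ENSMUSG00000026478, chromosome 1), the gamma chain gene shared by most laminins, stood at 16.8, 20.1, 48.1 and 80.1 RPKM in Suz12-KO cells at 0, 24, 48 and 72 h, against 17.2, 15.3, 15.0 and 21.8 RPKM in WT cells. As deposited, the WT levels stayed between 15.0 and 21.8 RPKM, and the Suz12-KO levels were above this range at 48 and 72 h. On scaled RPKM the WT level dipped, with a 48 h to 0 h ratio of 0.58-fold (0.55 to 0.60). The ratio between the lines was 0.812-fold at 0 h, 1.07-fold at 24 h, 2.81-fold at 48 h and 3.52-fold (3.40 to 3.63) at 72 h. Lamc1 rose in Suz12-KO cells by the authors' deposited table and carries no mark in WT cells. At 72 h against 0 h Lamc1 differed by 1.81 on the log2 scale in Suz12-KO cells and by -0.27 in WT cells, and the WT value was 0.34 on RPKM as deposited.

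Per length, the RNA levels of the chains were compared within each line. At 0 h the ratio of Lamb1 to Lamc1 RPKM was 0.247 in Suz12-KO and 0.252 in WT cells. By 72 h it was 0.978 in Suz12-KO and 0.910 in WT cells. The ratio of Lama1 to Lamb1 RPKM was 0.714 in Suz12-KO cells, against 0.236 in WT cells at 72 h. Over all alpha, beta and gamma chain genes the summed RPKM at 72 h were 69.4, 87.4 and 86.9 in Suz12-KO cells, against 19.8, 29.0 and 23.7 in WT cells. Lamb1 gave 89.6% of the beta chain RPKM in Suz12-KO and 68.4% in WT cells at that time, and Lamc1 gave 92.2% and 92.1% of the gamma chain RPKM. The ratio of Col4a1 to Col4a2 RPKM was 2.37, 2.01, 2.03 and 1.84 (1.79 to 1.90) in Suz12-KO cells at 0, 24, 48 and 72 h, against 1.89 (1.04 to 3.54), 2.02, 1.60 and 1.31 (1.21 to 1.41) in WT cells. The counting intervals of the lines overlapped at 0 and 24 h and did not at 48 and 72 h.

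The nidogens, which link the laminin and collagen IV networks, were lower in Suz12-KO than in WT cells at 0 and 24 h and higher at 48 and 72 h. Nid2 (ENSMUSG00000021806, chromosome 14) stood at 7.56, 8.57, 20.97 and 38.9 RPKM in Suz12-KO cells at 0, 24, 48 and 72 h, against 13.9, 11.1, 11.6 and 22.1 RPKM in WT cells. Its difference between the lines was -1.10, -0.63, 0.65 and 0.73 on the log2 scale. By the authors' deposited table Nid2 rose in Suz12-KO cells and is not marked in WT cells.

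Nid1 (ENSMUSG00000005397, chromosome 13) was the least abundant member at 48 and 72 h, with 3.12, 1.21, 1.91 and 3.93 RPKM in Suz12-KO cells at 0, 24, 48 and 72 h, against 4.57, 1.66, 1.09 and 2.92 RPKM in WT cells. Both lines were lowest in mid-course, at 24 h in Suz12-KO and at 48 h in WT cells. Nid1 fell in WT cells by the authors' deposited table, where the 72 h to 0 h ratio was 0.413-fold (0.367 to 0.465). As deposited, the WT levels of 4.57 and 2.92 RPKM at 0 and 72 h were less than 2-fold apart. In Suz12-KO cells the ratio was 0.939-fold (0.833 to 1.06) without a mark, and the log2 value was -0.08 and on RPKM as deposited 0.29. The ratio of Nid2 to Nid1 RPKM at 72 h was 9.89 in Suz12-KO and 7.59 in WT cells.

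Sparc (ENSMUSG00000018593, chromosome 11) reached the highest level of the 10 genes. It stood at 11.7, 11.1, 45.2 and 119 RPKM in Suz12-KO cells at 0, 24, 48 and 72 h, against 5.64, 4.85, 14.7 and 37.8 RPKM in WT cells. At 72 h it ranked 41 by RPKM among protein-coding genes in Suz12-KO cells, against 249 in WT cells. RPKM as deposited was about level between 0 and 24 h in both lines and climbed after that, while on the scaled log2 scale 24 minus 0 h was -0.57 in Suz12-KO, against -0.65 in the WT line. By 72 h the gene was above 0 h, and both rises carry the mark of the authors' deposited table. The ratio between the lines was 1.73-fold at 0 h, 1.86-fold at 24 h and 2.70-fold at 48 h, with a counting interval of 2.89 to 3.12 at 72 h.

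Hspg2 (ENSMUSG00000028763, chromosome 4), which encodes perlecan, differed by at most 0.37 between the lines on the log2 scale of scaled RPKM. It stood at 6.39, 4.76, 8.85 and 18.3 RPKM in Suz12-KO cells at 0, 24, 48 and 72 h, against 5.02, 4.71, 6.38 and 13.4 RPKM in WT cells. The differences were 0.07, -0.25, 0.27 and 0.37 on the log2 scale, and 0.32, 0.01, 0.44 and 0.43 on RPKM as deposited. Hspg2 was higher at 72 h than at 0 h by 2.14-fold in Suz12-KO and 1.73-fold in WT cells, and neither line carries the authors' mark.

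Counted together, more of the genes stood apart late than early. A gene was counted as 2-fold apart at 1 unit or more of log2(scaled RPKM + 0.5). At 0 h and at 24 h Col4a1, Col4a2 and Lama1 (3 of 10) passed this size above WT, where 3.18% and 2.03% of all genes kept did. At 48 and at 72 h 6 of 10 did, with Lamb1, Lamc1 and Sparc added, against 1.69% and 2.46% of all genes. Nid2 alone was at least 2-fold lower, at 0 h, where 2.15% of all genes were, and not on RPKM as deposited. None was at 24, 48 or 72 h, beside 2.08%, 2.99% and 3.01% of all genes. The median difference of the 10 genes was -0.11, 0.08, 1.33 and 1.68 at 0, 24, 48 and 72 h, beside -0.01 to 0.01 for all genes kept. These shares describe genes picked for such values and say nothing further about them.

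**Figure D3:**
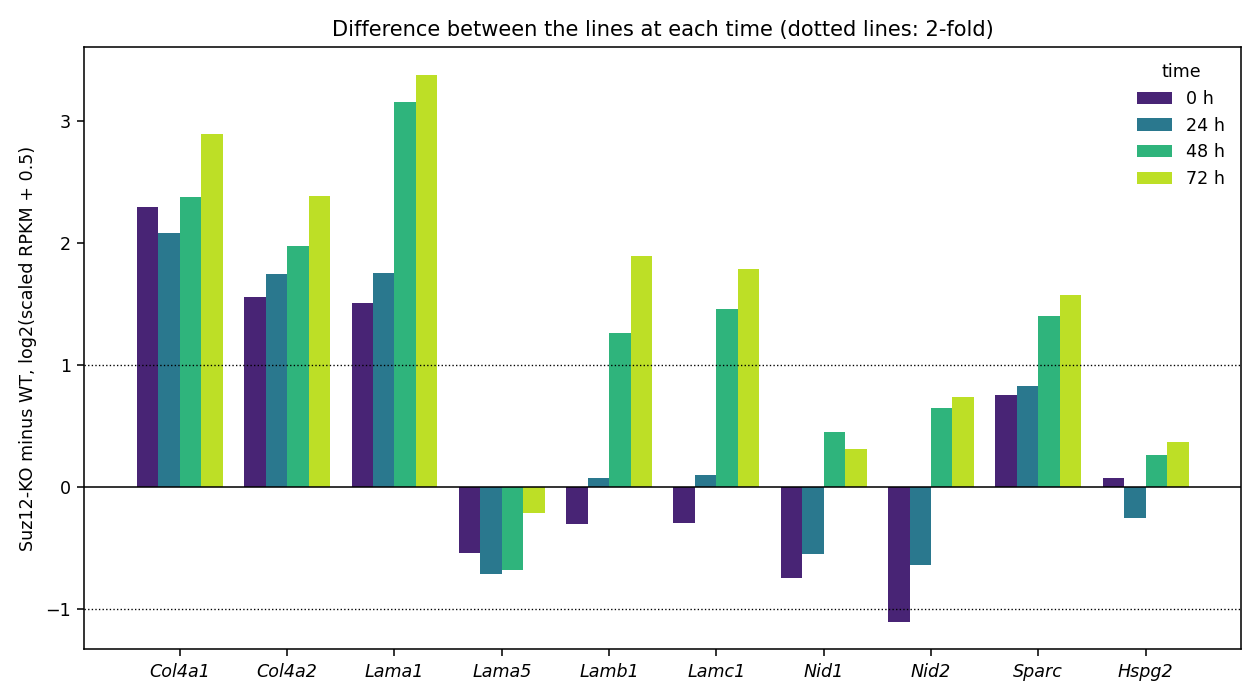
Suz12-KO minus WT on the log2(scaled RPKM + 0.5) scale for the 10 genes at 0, 24, 48 and 72 h, with dotted lines at 2-fold. At 72 h Lama1 stands at 3.37, Col4a1 at 2.89 and Lama5 at -0.21.

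In Suz12-KO cells more of the genes gained 2-fold between 24 and 48 h than in the step before or after. At 48 h 7 of 10 genes were at least 2-fold above their 24 h level in Suz12-KO cells, beside 3.88% of all genes, and 3 of 10 (Col4a1, Col4a2 and Sparc) were in WT cells, beside 4.97%. None was lower by that size, beside 3.20% of all genes in Suz12-KO and 3.34% in WT cells. In the first 24 h none of the 10 was at least 2-fold higher in either line, beside 6.18% of all genes in Suz12-KO and 4.52% in WT cells, and Lama1 and Nid1 were at least 2-fold lower in both, beside 5.40% of all genes in Suz12-KO and 3.78% in WT cells. On RPKM as deposited Nid1 was past 2-fold lower in both lines and Lama1 in neither, while Col4a2 (1.06) and Lamb1 (1.21) were past 2-fold higher in Suz12-KO cells.

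Measured from 0 h, more genes were past 2-fold at 72 h than at 48 h in both lines. By 48 h 5 of 10 were at least 2-fold above 0 h in Suz12-KO cells, beside 11.8% of all genes, and 3 of 10 in WT cells, beside 12.5%. Nid1 was then lower in both lines, beside 9.12% of all genes in Suz12-KO and 8.28% in WT cells. From 48 to 72 h Col4a1, Col4a2, Sparc and Hspg2 (4 of 10) gained at least 2-fold in Suz12-KO cells, beside 2.73% of all genes, and Nid1 and Sparc (2 of 10) in WT cells, beside 2.52%. None lost that much, beside 1.49% of all genes in Suz12-KO and 1.63% in WT cells. At 72 h 8 of 10 were at least 2-fold above 0 h in Suz12-KO cells, beside 16.7% of all genes, and 4 of 10 in WT cells, beside 16.2%. None was 2-fold below 0 h in Suz12-KO cells, beside 13.8% of all genes. Nid1 was in WT cells, beside 11.2%, and not on RPKM as deposited.

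The authors' own marks cover the whole course. In the authors' deposited table marks stand beside 7 of 10 genes that were higher at 72 h in Suz12-KO cells, where 19.0% of all genes kept were so marked, and 4 of 10 in WT cells, where 18.0% were. None was marked and lower in Suz12-KO cells, as 14.2% of all genes were. Nid1 was marked and lower in WT cells, as were 12.2% of all genes. The 72 h change was larger in Suz12-KO cells by at least 1 log2 unit in Lama1, Lamb1, Lamc1, Nid1 and Nid2 (5 of 10), beside 3.67% of all genes, and smaller by as much in none, beside 4.74%. Reads of the 10 genes made up 0.239%, 0.205%, 0.672% and 1.22% (Wilson interval 1.21 to 1.23) of protein-coding reads in Suz12-KO cells at 0, 24, 48 and 72 h, against 0.226%, 0.194%, 0.267% and 0.411% (0.406 to 0.415) in WT cells.

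Over the 8 columns Col4a1 and Col4a2 had a Pearson r of 0.99, Col4a1 and Sparc 0.92, Col4a1 and Lamb1 0.90 and Col4a1 and Lama1 0.82. Lama5 (r 0.04 with Col4a1) and Nid1 (-0.21) did not follow this profile. Of 1308 other protein-coding genes with a range of at least 2 log2 units, Ak1, Me1, Myof, Rassf10 and Wnt11 were most like the mean standardized profile of the 10 genes (r 0.95 to 0.97), and Slc7a6, Mfge8, Zfp629 and Sorbs3 were among those most like Col4a1 (r 0.97 to 0.98). Ak1, adenylate kinase, stood at 3.90, 3.19, 9.14 and 19.8 RPKM in Suz12-KO cells at 0, 24, 48 and 72 h, against 4.76, 3.26, 5.04 and 9.39 RPKM in WT cells. These correlations are descriptions over 8 columns that share lines and times.

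Other genes of the basement membrane pathway were taken from 6 lists with 72 genes, of which 49 passed the filter. The lists were chosen with earlier results of these data known. Their counts beside all genes, and their p-values, are therefore descriptions and no independent support. For each of all 10860 genes limma tested the mean gap between Suz12-KO and WT over the 4 times, with time as a block. Its p therefore rests on how much the gap varied from time to time, not on the spread between cultures. Of the 49 genes it called 7 higher and 2 lower in Suz12-KO cells, where 3.18% of all genes were called higher and 2.41% lower. At an unadjusted p under 0.05, 22 of the 49 were higher and 3 lower, beside 12.8% of all genes higher and 11.2% lower. The median difference was 0.25, beside -0.01 over all genes. The calls depend on single times: without the 0 h columns 12 were higher and 1 lower, without the 24 h columns 2 and 0, without the 48 h columns 0 and 0, and without the 72 h columns 3 and 2. On RPKM as deposited 16 were higher and 2 lower, and with all genes above 0 tested none passed.

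**Figure D4:**
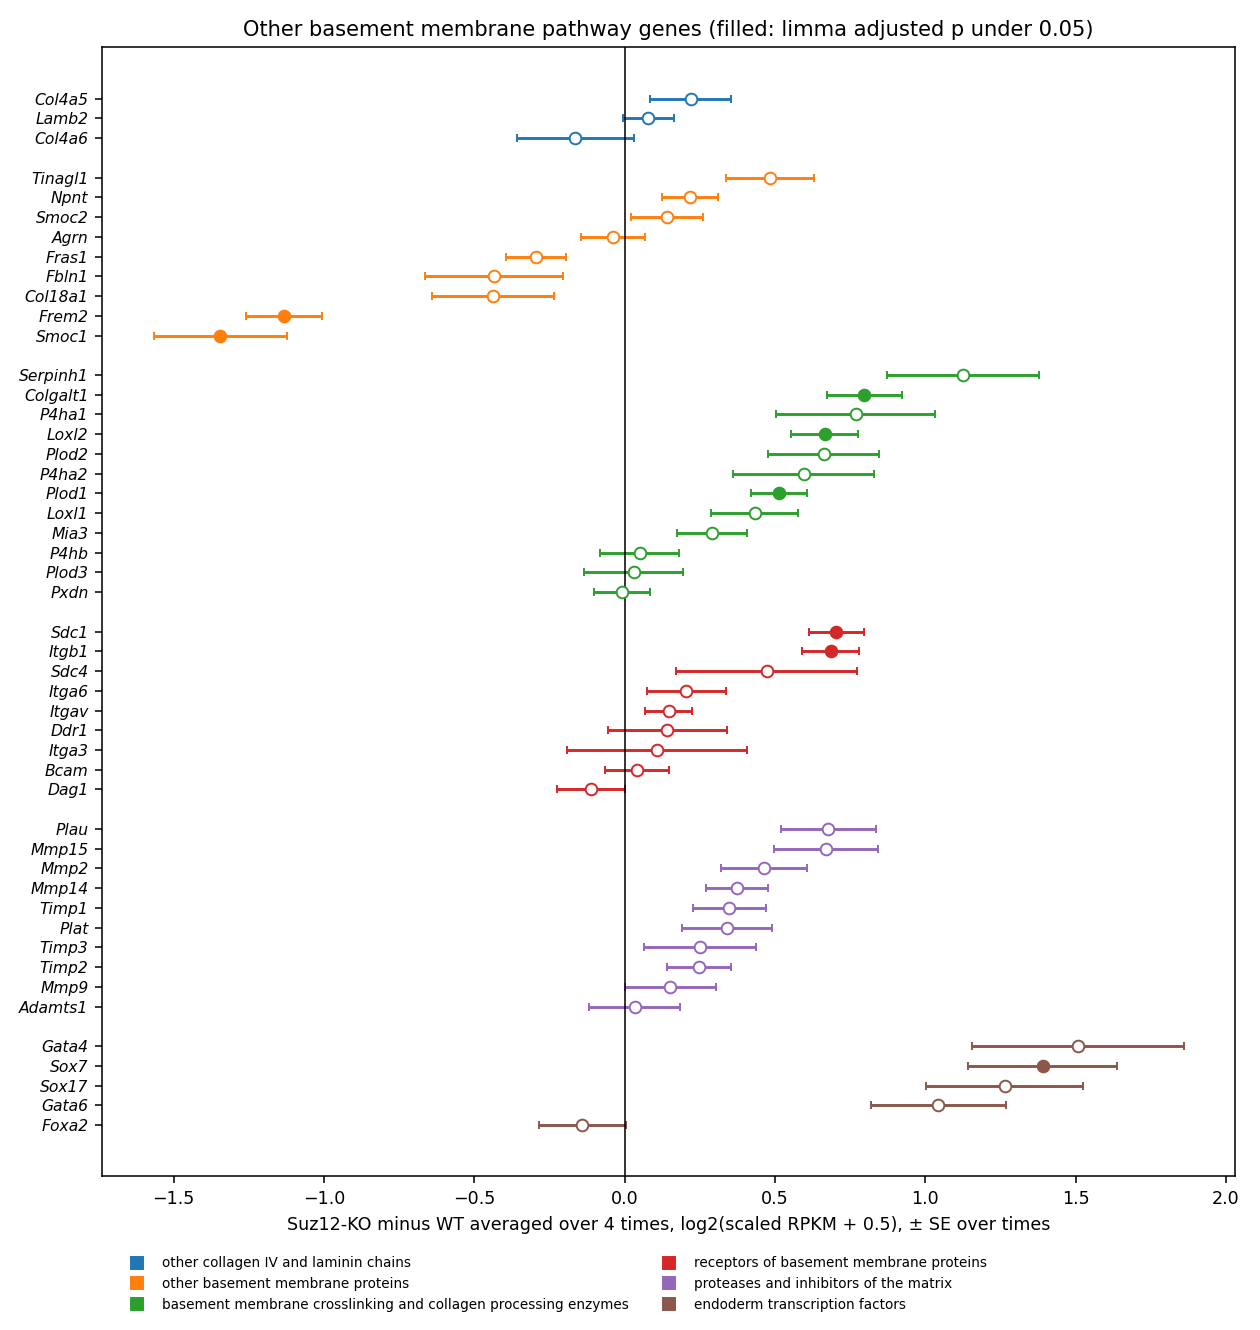
Suz12-KO minus WT averaged over 4 times on the log2(scaled RPKM + 0.5) scale, with the limma standard error, for the other pathway genes kept and reported, grouped by list. Filled points passed limma at an adjusted p of 0.05, and the 2 of them below 0 are Frem2 and Smoc1.

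Among the other collagen IV and laminin chain genes, 4 of 11 passed the filter. Lamb2 was close between the lines, with 8.75 RPKM in Suz12-KO and 8.82 RPKM in WT cells at 72 h. Col4a5, Col4a6 and Lamb2 rose in both lines by the authors' deposited table.

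The other basement membrane proteins held the 2 genes called lower among the 9 kept, and 0 higher by limma (1 higher and 3 lower at an unadjusted p under 0.05). Frem2, a protein of the embryonic epidermal basement membrane, was lower (difference -1.13, SE 0.13, limma adjusted p = 0.00999), with 0.113, 0.350, 0.688 and 2.02 RPKM in Suz12-KO cells at 0, 24, 48 and 72 h, against 0.649, 1.53, 2.08 and 3.62 RPKM in WT cells. Smoc1, a Sparc-related protein, differed by -1.34 (limma adjusted p = 0.0293), and its highest Suz12-KO level (0.661 RPKM) lay below its lowest WT level (1.02 RPKM). Both calls were lost without the 24 or the 48 h columns, and that of Smoc1 also without the 0 h columns.

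Of the 12 crosslinking and collagen processing enzymes kept, 3 were higher and 0 lower (9 and 0 at an unadjusted p under 0.05). They were Colgalt1, a collagen galactosyltransferase (0.80, limma adjusted p = 0.0261), Loxl2, a lysyl oxidase that crosslinks collagen IV (0.67, adjusted p = 0.0303), and Plod1, a lysyl hydroxylase (0.51, adjusted p = 0.0375). Colgalt1 stood at 13.1, 16.8, 26.8 and 31.9 RPKM in Suz12-KO cells at 0, 24, 48 and 72 h, against 7.70, 8.82, 11.7 and 13.8 RPKM in WT cells. Every one of these 3 calls was lost without the 24, the 48 or the 72 h columns, and that of Plod1 also without the 0 h columns, with scaling to protein-coding sums (adjusted p = 0.0592) or with a limma prior variance without trend (adjusted p = 0.0516). Of the 12 enzymes, 8 carry a mark and a higher level at 72 h in the authors' deposited table in Suz12-KO cells, and 5 do in WT cells.

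Among the receptors 2 of 9 kept genes were higher and 0 lower (2 and 0 at an unadjusted p under 0.05). Itgb1, the beta subunit of the main laminin and collagen receptors, was higher by 0.69 (SE 0.09, limma adjusted p = 0.0179), and Sdc1, a cell surface heparan sulfate proteoglycan, by 0.70 (SE 0.09, adjusted p = 0.0159), each at 4 of 4 times, and both calls were lost without the 24 or the 48 h columns. Itgb1 stood at 20.3, 36.1, 40.5 and 48.0 RPKM in Suz12-KO cells at 0, 24, 48 and 72 h, against 9.09, 17.0, 22.5 and 33.4 RPKM in WT cells. Dag1, the gene of the laminin receptor dystroglycan, was at 29.7 RPKM in Suz12-KO and 34.3 RPKM in WT cells at 72 h. Of the 10 matrix proteases and inhibitors kept, limma called 0 in either direction (5 higher and 0 lower at an unadjusted p under 0.05), and 7 rose in each line by the authors' deposited table.

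Of the 5 endoderm transcription factors kept, limma called 1 higher in Suz12-KO cells, Sox7 (1.39, SE 0.25, adjusted p = 0.0356), with 0 lower (4 and 0 at an unadjusted p under 0.05). Sox7 stood at 0.323, 1.11, 1.95 and 2.08 RPKM in Suz12-KO cells at 0, 24, 48 and 72 h, against 0.0587, 0.0865, 0.221 and 0.0574 RPKM in WT cells. Gata4 (1.51, adjusted p = 0.0656) and Sox17 (1.26, adjusted p = 0.0501) did not pass limma and were at least 4-fold apart at 72 h. Gata4 then stood at 4.58 RPKM in Suz12-KO cells, against 0.310 RPKM in WT cells, and Sox17 at 4.87 RPKM in Suz12-KO cells, against 0.648 RPKM in WT cells. Each of these 3 genes was higher in Suz12-KO cells at all 4 times. Foxa2 averaged -0.14, with differences of 0.04, -0.45, -0.41 and 0.27 at 0, 24, 48 and 72 h. Gata6 averaged 1.04 (limma adjusted p = 0.0553) and differed by 0.47 at 72 h. The Sox7 call was lost without the 24, the 48 or the 72 h columns, and Gata4 and Sox17 passed without the 0 h columns.

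Marker lists of the cells present were read beside these results. All 6 embryonic stem cell markers reached 1 RPKM at 0 h in both lines, and their summed level at 0 h was 311 RPKM in Suz12-KO and 255 RPKM in WT cells. By 72 h it was 8.40 RPKM in Suz12-KO and 5.57 RPKM in WT cells. Marker levels are RPKM as deposited, without scaling. Division by the 0 h factors (-0.26 in Suz12-KO and -0.53 in WT cells on the log2 scale) brings the 0 h sums close together. Parietal endoderm markers summed to 1.12, 8.17, 35.5 and 89.4 RPKM in Suz12-KO cells at 0, 24, 48 and 72 h, against 0.929, 4.32, 32.1 and 61.4 RPKM in WT cells, with 5 of 6 at 1 RPKM or more in Suz12-KO and 4 of 6 in WT cells at 72 h. Most of each sum at 72 h was the keratin gene Krt19, at 49.2 RPKM in Suz12-KO and 37.7 RPKM in WT cells. At 48 h Krt19 was lower in Suz12-KO cells (9.19 and 13.6 RPKM), and the rest of this list was higher by RPKM as deposited. The 48 h factors were 0.26 in Suz12-KO and 0.07 in WT cells on the log2 scale. After division by them the summed 48 h level and Stra6 (5.40 and 5.24 RPKM as deposited) were slightly lower in Suz12-KO cells. Visceral endoderm markers summed to 0.721 to 26.4 RPKM in Suz12-KO and 0.337 to 4.77 RPKM in WT cells, with 3 of 7 at 1 RPKM or more in each line at 72 h. At 48 h most of the Suz12-KO sum was Cubn, an endocytic receptor gene, at 17.7 RPKM in Suz12-KO and 0.181 RPKM in WT cells. Dab2 (5.66 RPKM in Suz12-KO, 1.26 RPKM in WT) and Amn (1.03 and 0.408 RPKM) were also higher in Suz12-KO cells at that time. So was Apoa1, on 2 and 1 reads. Ttr (0.663 RPKM in Suz12-KO, 1.33 RPKM in WT), Rbp4 (1.25 and 1.47 RPKM) and Afp (0.0447 and 0.0969 RPKM, on 3 and 5 reads) were lower in Suz12-KO cells at 48 h. By 72 h Rbp4 was higher in Suz12-KO cells (2.90 and 1.23 RPKM). The serum protein gene Apoa1 had 0 reads in both lines at 72 h, and Afp and Ttr had 0 reads in both at 0 h. Fibroblast markers summed to 0.533 to 11.8 RPKM in Suz12-KO and 0.582 to 10.2 RPKM in WT cells, with 3 of 6 at 1 RPKM or more in Suz12-KO and 4 of 6 in WT cells at 72 h, and endothelial markers to 1.66 to 2.85 RPKM in Suz12-KO and 1.19 to 6.01 RPKM in WT cells. Emcn, an endothelial marker, had 0 reads in 7 of the 8 columns. The part of such cells in the levels above was not tested.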

How the data were processed

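RNA was rRNA-depleted total RNA, per the labels' protocols. The submitters' processing notes name TopHat, featureCounts, DESeq2 and GRCm38 (mm10), without versions. The authors deposited RPKM for 24452 genes (Ensembl release 72 IDs, per the file headers), with 1 column for each of 8 groups, and TRUE or FALSE marks for 72 against 0 h, without a stated threshold. The marks carry no direction, which was taken from scaled RPKM. How the replicates became 1 column is not stated.

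Members, lists and the naming rule were chosen with earlier results of these data known. All 10 are named. The rule for list genes, passing limma or at least 4-fold apart at 72 h, takes 11 genes, and it also takes the genes most like the members. A gene under each of these rules is not reported here. Col4a5, Col4a6, Lamb2, Dag1, Foxa2, Gata6 and the markers Krt19, Stra6, Cubn, Dab2, Amn, Apoa1, Afp, Ttr, Rbp4 and Emcn were named after their values were seen. Whole reads were recovered from the steps between low values: with 1 total per column and 1 length per gene (the annotated exon length for 14150 genes, another for 10302), each of the 153803 nonzero values lay within 0.01 of a whole read. For the 10302 genes the length was itself chosen to give whole reads, so the match there was built in. Genes with at least 1 RPKM in 1 column were kept (10860), and symbols came from GENCODE M21. Columns were scaled by median-of-ratios factors computed over these genes. The scaled log2(RPKM + 0.5) values were fitted with limma 3.58.1 (R 4.3.3), trended empirical Bayes and time as a block, tested on simulated data first, with Benjamini-Hochberg adjustment at 0.05. No source used here says whether counting used strand. Col4a1 overlaps the antisense gene Gm15418, Nid2 overlaps Rtraf by 437 bases and Lamc1 holds the pseudogene Gm8818, so their reads may mix.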

Additional observations from a re-analysis of the deposited data

Results flagged for a closer look

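Lamc1 was picked out because its 72 h change had opposite signs in the lines, 1.81 in Suz12-KO and -0.27 in WT cells on the log2 scale, a difference of 2.08 that was not tested. On RPKM as deposited the WT change was 0.34, so the opposite signs depend on the scaling.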

How the results depend on the processing

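No paired analysis was possible because the table holds 1 column per group and no replicate numbers; limma matched the lines by time alone. All-gene limma calls of 345 higher and 262 lower were 1135 and 173 on RPKM as deposited, 59 and 73 with all genes above 0, 52 and 82 without the 24 h columns, 18 and 47 without the 48 h columns, and 73 and 99 without the 72 h columns. The pathway calls of 7 higher and 2 lower were 16 higher as deposited, 0 and 0 with all genes above 0, 12 and 1 without the 0 h columns, 2 and 0 without the 24 h columns, 0 and 0 without the 48 h columns and 3 higher without the 72 h columns. The cause was not tested, except that fewer times leave fewer degrees of freedom.

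Of the counts of members, the 1 gene at least 2-fold lower at 0 h was 0 as deposited, and the 1 gene lower in WT cells at 72 h was 0 as deposited or scaled to protein-coding sums. For 24 h minus 0 h, in Suz12-KO cells as deposited 2 members were higher and 1 lower, and in WT cells 1 was lower as deposited and 1 higher with 0.1 added. No member value at least 2-fold apart turned its sign under any scaling or constant tried. For the 9 pathway genes called, 65 repeats kept the call and 34 lost it. For Gata4 and Sox17, which were not called, 14 repeats gave no call and 8 gave one. All repeats kept the direction. Single-column values lack any measure of variation between cultures, and WT collagen IV at 0 h rests on 35 and 18 reads.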
